A study of Mus musculus with 4 samples.

Results

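The mRNAs of 10 snoRNP and nucleolar ribosome assembly proteins were followed among the 31053 genes of the count tables. They were chosen by name as *Nop56*, *Nop58*, *Fbl*, *Dkc1*, *Nop10*, *Nhp2*, *Gar1*, *Ncl*, *Npm1* and *Nolc1*, and each was found by its Ensembl identifier. All 10 had enough counts to be tested. The samples were primary cortical neurons cultured from mice of genotype WT. Enhanced crosslinking and immunoprecipitation (eCLIP) fixes RNA to protein, trims it with RNase I and sequences the RNA that an antibody pulls down, here one that binds RPS2, part of the small subunit of the ribosome. There were 2 RPS2 IP and 2 total RNA libraries. The methods state that total RNA was set aside ahead of the IP. Libraries of the same replicate number were taken as a pair, a match read from the titles. The labels list rRNA depletion as treatment for the IP only and no treatment for the total RNA, while the methods mention depletion of finished libraries and do not name the ones depleted. Where the labels are right, depletion and IP cannot be told apart. The study read IP counts over total RNA counts of each gene as a measure of translational efficiency. The comparison here asks how strongly the mRNAs of the snoRNP machinery were recovered with RPS2 relative to their level in total RNA.

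Small nucleolar RNAs (snoRNAs) guide chemical changes on ribosomal RNA. Those of the box C/D type guide 2′-O-methylation and sit in a particle built on NOP56, NOP58, the methyltransferase fibrillarin (*Fbl*) and SNU13. Those of the box H/ACA type guide pseudouridylation with the pseudouridine synthase dyskerin (*Dkc1*) and its partners NOP10, NHP2 and GAR1. Nucleolin (*Ncl*) and nucleophosmin (*Npm1*) are abundant nucleolar proteins that act in ribosome assembly, and NOLC1 (Nopp140) is a nucleolar phosphoprotein that binds both kinds of snoRNP. Most mammalian snoRNAs are released from introns of host genes, and many hosts themselves encode parts of the translation machinery.

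Some of these genes carry snoRNAs of their own, and a read from a snoRNA that lies in a counted exon falls within the exons counted for its host. GENCODE M21 placed 13 snoRNAs inside 4 of the 10 genes, 7 in counted exons and 6 in introns. A snoRNA was taken as exonic when at least 50% of its bases lay in counted exons on the same strand. *Nop56* held 4 exonic snoRNAs and the intronic Snord110, *Nop58* held 1 exonic and 3 intronic, *Ncl* held 2 exonic and the intronic Snord82, and *Dkc1* held 1 intronic. No snoRNA was annotated in the other 6 genes. None of the 1558 annotated snoRNA and scaRNA identifiers was a row of the count tables, and no other row overlapped the 10 genes on their strand, so the tables hold no separate value for these 13. Elsewhere 2 rows, Gm29362 and Gm23925, consist of a small RNA over 100% and 99.2% of their counted bases. How much of a host's count stems from its snoRNAs was not tested.

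The 7 exonic sequences are printed here because a read within them on the gene's strand falls in counted exons of *Nop56*, *Nop58* or *Ncl*. They are 5′ to 3′ in DNA letters from the GENCODE M21 transcripts, with coordinates on mm10. Capitals mark a box C (TGATGA, with at most 1 mismatch, starting within the first 20 bases) and a box D (CTGA, ending within the last 16 bases) in RNAs of up to 110 bases, or an ACA at most 8 bases from the 3′ end of longer ones. Only the RNA strand was searched. By these letters 24.1% of the 1558 annotated RNAs held a box C/D pattern and 43.2% an H/ACA pattern, while 32.7% held neither. Of the 13 snoRNAs inside these genes, 10 held the C/D pattern, 2 the H/ACA pattern and 1 neither. The patterns were set after these sequences were seen, so these counts only describe the letters. In *Nop56*, on the plus strand of chromosome 2, Gm24451 (chr2:130276237-130276369) had 100 of its 133 bases in counted exons. Gm23187 (chr2:130277195-130277280), Gm23650 (chr2:130277697-130277766) and Snord57 (chr2:130278016-130278087) lay wholly in them.
Gm24451: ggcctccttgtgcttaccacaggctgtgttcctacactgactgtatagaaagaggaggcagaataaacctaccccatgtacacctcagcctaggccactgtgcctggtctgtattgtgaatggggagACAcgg
Gm23187: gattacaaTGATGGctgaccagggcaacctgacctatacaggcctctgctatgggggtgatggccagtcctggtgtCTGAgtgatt
Gm23650: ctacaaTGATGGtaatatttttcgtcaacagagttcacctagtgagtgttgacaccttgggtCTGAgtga
Snord57: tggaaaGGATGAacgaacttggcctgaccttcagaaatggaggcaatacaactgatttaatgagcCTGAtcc

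These 4 together cover 328 bases, or 8.0% of the 4099 counted bases of *Nop56*. The annotated exons of *Nop56* take in 83.9% of the 4884 bases the gene spans. The exonic snoRNA of *Nop58*, Gm26293 (chr1:59692509-59692592, plus strand), makes up 0.781% of 10758 counted bases. Those of *Ncl*, Snora75 (chr1:86351169-86351301) and Gm24148 (chr1:86352008-86352087, 56 of its 80 bases counted), both on the minus strand, make up 1.86% of 10188.
Gm26293: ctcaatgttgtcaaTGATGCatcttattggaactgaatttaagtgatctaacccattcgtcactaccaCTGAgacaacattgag
Snora75: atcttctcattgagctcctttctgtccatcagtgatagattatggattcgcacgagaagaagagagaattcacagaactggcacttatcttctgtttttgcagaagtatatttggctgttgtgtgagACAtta
Gm24148: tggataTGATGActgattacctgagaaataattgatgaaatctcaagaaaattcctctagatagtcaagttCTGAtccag

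**Figure D1:**
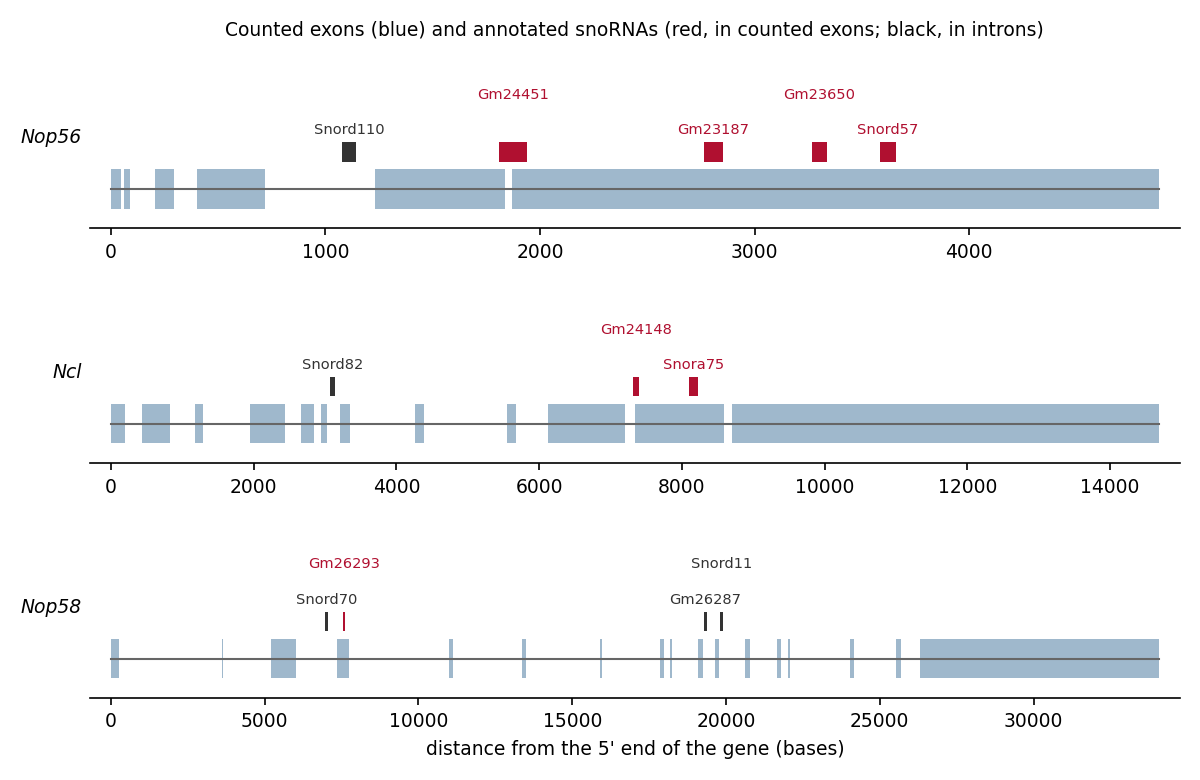
Maps of *Nop56*, *Ncl* and *Nop58*, with counted exons as blue boxes and annotated snoRNAs above them, red when in counted exons and black when in introns, against the distance from the 5′ end of each gene in bases. *Nop56* holds 4 red snoRNAs within 4884 bases, *Ncl* 2 within 14682 and *Nop58* 1 within 34074.

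The libraries held 16460545 and 9941486 counts in IP replicates 1 and 2 and 5281196 and 4899718 in total RNA. One row, Gm42418, took 42.6% and 27.9% of the counts in IP replicates 1 and 2 and 39.8% and 15.3% in those of total RNA. What its reads stem from was not tested. Levels are CPM, counts scaled to the TMM-adjusted library size. Libraries differed more by replicate number than by IP, with an SD across genes of the log2 ratio of 0.47 and 0.50 within the pairs, 0.69 between both IP libraries and 0.78 between those of total RNA. All 7 neuron markers were counted in every library and summed to between 3476 and 4140 CPM. All 5 astrocyte markers were counted too, with a sum of 1861 and 1573 CPM in IP and total RNA of replicate 1 and 633 and 605 CPM in replicate 2. The microglia sum was 60.1 and 58.8 CPM in replicate 1 and 6.83 and 4.93 CPM in replicate 2. Of the 5 fibroblast and endothelial markers, which summed to between 3.14 and 22.0 CPM, *Cldn5* was at 0 in all 4 libraries, and the 5 dividing-cell markers summed to at most 2.45 CPM. The astrocyte and microglia sums followed the replicate number. So did the fibroblast and endothelial sum, at 16.3 and 22.0 CPM in IP and total RNA of replicate 1 and 3.14 and 5.75 CPM in replicate 2. The oligodendrocyte lineage sum was 61.4 and 60.1 CPM in replicate 1 and 51.8 and 48.3 CPM in replicate 2. Excitatory neuron markers summed to between 877 and 943 CPM, and inhibitory neuron markers to between 1064 and 1203 CPM. Fewer cells of a type and less RNA per cell cannot be told apart in such bulk samples.

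Per kilobase of counted exon, *Nop56* had the highest mean level of the 10 over the 4 libraries, at 35.4 ± 40.3 CPM per kb (SD, n = 4 libraries), with single libraries from 6.84 to 95.1. *Nop10* followed at 14.2 ± 3.35 CPM per kb, then *Nolc1* at 11.2 ± 2.94, *Ncl* at 9.42 ± 2.42, *Nhp2* at 9.34 ± 1.48 and *Npm1* at 8.16 ± 0.648. *Fbl* (3.46 ± 1.28 CPM per kb) and *Gar1* (3.17 ± 0.706) formed the next step, and *Nop58* (1.03 ± 0.252) and *Dkc1* (0.895 ± 0.306) the lowest. Neighbours in this order overlapped in their libraries, except for *Npm1* with *Fbl* and *Gar1* with *Nop58*. *Nop56* led in both total RNA libraries, but *Nop10* stood above it in IP replicates 1 (18.3 against 17.3) and 2 (15.2 against 6.84). In IP replicate 2 *Nhp2*, *Nolc1* and *Npm1* stood above *Nop56* too. *Nop56* stood at the 93.6th percentile of all genes tested on this scale and its partner *Nop58* at the 18.9th. The per-kilobase level of *Nop56* over that of *Nop58*, which binds the same box C/D snoRNAs, was 71.8 and 29.4 in the total RNA libraries and 19.4 and 5.93 in those of the IP, for replicates 1 and 2. Over *Fbl* it was 43.8 and 4.53 in total RNA and 6.51 and 1.70 in the IP. These levels, ranks and ratios divide by all annotated exons of a gene joined together. For *Nop58* that takes in an exon from 26300 to 34073 bases from its 5′ end. The other annotated exons that start there end by 26539. *Ncl* likewise has an exon from 8704 to 14681. Which of these exons the neurons use was not tested, so differences between genes on this scale depend in part on annotated length.

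Reads that fit several places in the genome were not counted, so genes with close copies may be listed too low. At 95% identity or more over at least 50 bases, 83.3% of the longest coding transcript of *Fbl* matched other annotated transcripts, including the pseudogene Gm5812. The share was 53.8% for *Npm1* and 39.2% for *Nop56*, with 4 pseudogenes each. For *Nop10*, *Nhp2*, *Gar1* and *Nolc1* it was 0, and for *Nop58*, *Dkc1* and *Ncl* at most 8.26%. The levels of *Fbl*, *Npm1* and *Nop56* are uncertain for that reason. 

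**Figure D2:**
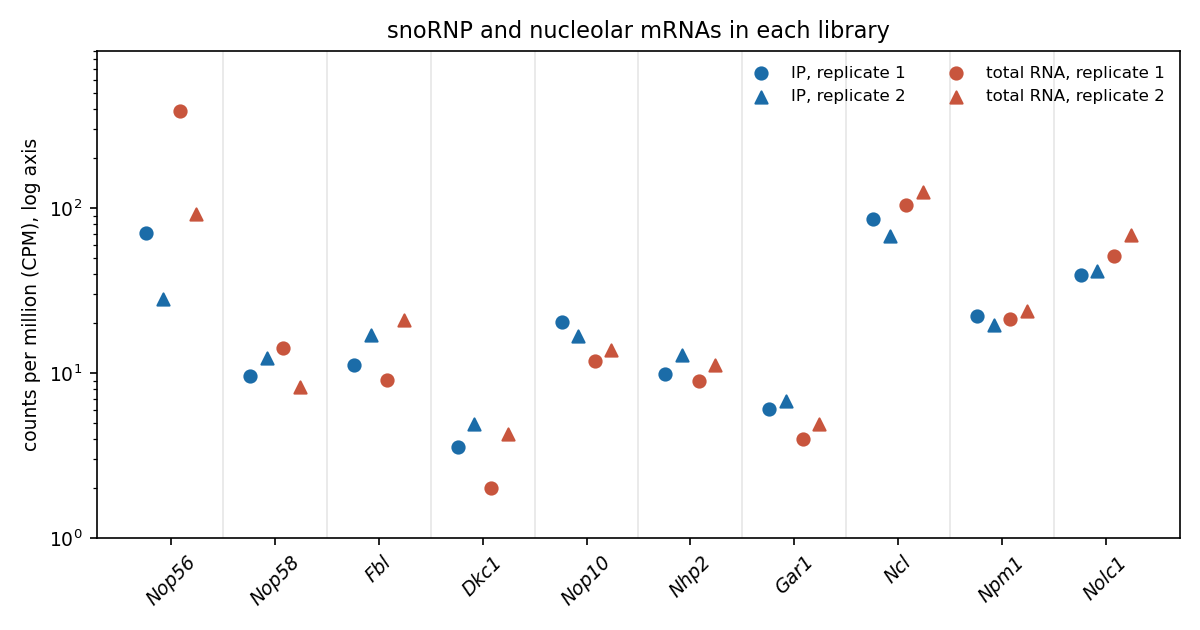
CPM of the 10 mRNAs in each library on a log axis, blue for IP and red for total RNA, circles for replicate 1 and triangles for replicate 2. *Nop56* ranges from 28.0 to 390 CPM, while *Npm1* stays between 19.7 and 23.8.

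The groups were compared by the edgeR quasi-likelihood test, with Benjamini-Hochberg adjustment over 12336 genes and a threshold of 0.05. Fitted without pairing, it called 0 of the 10 mRNAs in either direction. The same fit called 0 of all 12336 genes, with 349 at an unadjusted p under 0.05, and DESeq2 called 5. With the replicate number as a block, which sets each IP against total RNA of the same number, 0 of the 10 rose. The background was 6.63% of all genes called higher. With the block 3 of the 10 fell, *Nop56*, *Ncl* and *Nolc1*, against a background of 7.55% called lower. The other 7 were not called. The median log2 fold change over the 10 was -0.03 with the block and -0.06 without, beside 0.01 over all genes in both fits. The block leaves 1 residual degree of freedom, and edgeR then gave every gene the common trend of dispersion. The standard errors and adjusted p-values of this fit therefore rest on that trend, not on how far a gene's own pairs differ. The IP libraries both lay below total RNA in the same 3 genes, as in 14.9% of all genes, and both above in *Nop10* and *Gar1*, as in 16.9%. In the other 5 the groups overlapped, as in 68.2% of all genes. The log2 ratio was below 0 in both pairs for 3 of the 10, beside 32.2% of all genes.

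**Figure D3:**
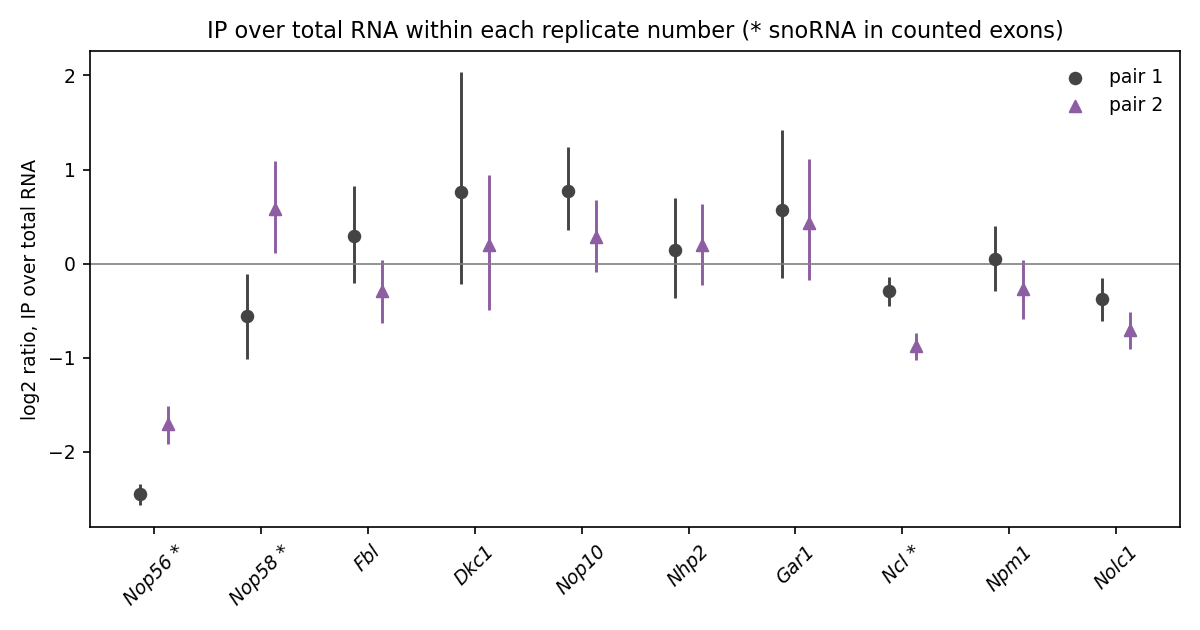
The log2 ratio of IP over total RNA within each replicate number for the 10 mRNAs, with black circles for pair 1, purple triangles for pair 2, vertical lines for the 95% counting interval and asterisks for genes with a snoRNA in counted exons. *Nop56* lies lowest in both pairs, and the triangle and circle of *Nop58* lie on opposite sides of 0.

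Among the box C/D core proteins, *Nop56* fell and *Nop58* and *Fbl* were not called. *Nop56* (ENSMUSG00000027405, chromosome 2, 130274430 to 130279313) had 71.0 and 28.0 CPM in the IP and 390 and 92.1 CPM in total RNA. Total RNA of replicate 1 stood far above the other 3 libraries, yet the groups did not overlap, with the IP lower. Within the pairs *Nop56* was lower in the IP by 5.48-fold and 3.27-fold, with log2 ratios of -2.45 (95% counting interval -2.57 to -2.34) and -1.71 (-1.92 to -1.51). With the block it fell by 2.14 on the log2 scale (SE 0.11, edgeR adjusted p = 3.9e-78), which placed it 19th from the lowest of the 12336 genes. Without the block the log2 fold change was -2.28 (SE 0.79), with an unadjusted p of 0.0314 and an adjusted p of 1.00 in the same edgeR test. Leaving out libraries from that fit gave -0.89 without total RNA replicate 1 and -2.98 without total RNA replicate 2. It gave -1.77 without IP replicate 2 and -3.10 without IP replicate 1, the last with an edgeR adjusted p of 0.00226.

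*Nop58*, the paralogue that pairs with NOP56 in the particle, had 9.61 and 12.4 CPM in the IP and 14.3 and 8.22 CPM in total RNA. Its pairs went opposite ways, each with a counting interval that left out 0. They stood at -0.56 (95% counting interval -1.01 to -0.11) in pair 1 and 0.58 (0.12 to 1.09) in pair 2. *Fbl*, which carries the methyltransferase activity, had 11.2 and 17.0 CPM in the IP and 9.13 and 20.9 CPM in total RNA. Its pair ratios were 0.29 and -0.29 on the log2 scale, and both counting intervals took in 0. The groups overlapped for both genes, with edgeR adjusted p-values under the block of 0.999 and 0.897.

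None of the 4 box H/ACA core mRNAs was called, and all 4 had log2 ratios above 0 in both pairs, as did 34.3% of all genes. Their median log2 fold change with the block was 0.48, and 0.24 with an offset for GC content and length. *Nop10*, the smallest protein of the particle, had 20.3 and 16.9 CPM in the IP and 11.8 and 13.8 CPM in total RNA, so that the groups did not overlap. With the block *Nop10* stood at a log2 fold change of 0.52 (SE 0.19, edgeR adjusted p = 0.0513), and its pair ratios were 0.77 (95% counting interval 0.36 to 1.24) and 0.29 (-0.09 to 0.68). *Nop10* passed the threshold in 2 of 9 fits with the block, at an edgeR adjusted p of 0.0497 with no low-count filter and 0.0477 with at least 10 counts in every library. With that offset its log2 fold change was 0.21, at an adjusted p of 0.616.

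*Gar1*, which joins the particle late in its assembly, had 6.07 and 6.74 CPM in the IP and 4.01 and 4.93 CPM in total RNA. The IP libraries were both above total RNA, and the fit with the block gave 0.52 on the log2 scale (SE 0.33, edgeR adjusted p = 0.326). *Nhp2* had 9.90 and 12.8 CPM in the IP against 8.91 and 11.2 CPM in total RNA, with the replicates further apart than IP and total RNA of either pair and a log2 fold change under the block of 0.18 (SE 0.24, edgeR adjusted p = 0.688). *Dkc1*, the catalytic subunit, had the fewest counts of the 10, with 49 and 55 in the IP libraries against 9 and 26 for total RNA, or 3.54 and 4.94 CPM against 2.00 and 4.27 CPM. The block gave *Dkc1* 0.45 on the log2 scale (SE 0.40, edgeR adjusted p = 0.525). Counting error at this depth is wide, and the counting interval of its pair 1 ratio ran from -0.22 to 2.03 on the log2 scale.

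Of the nucleolar phosphoproteins, *Ncl* and *Nolc1* fell with the block and *Npm1* was not called. *Ncl* (ENSMUSG00000026234, chromosome 1, 86344719 to 86359400) had 85.6 and 68.1 CPM in the IP and 105 and 125 CPM in total RNA. The groups did not overlap, and pair 2 differed more than pair 1, with log2 ratios of -0.88 (95% counting interval -1.03 to -0.73) and -0.30 (-0.45 to -0.14). With the block it fell by 0.59 on the log2 scale (SE 0.11, edgeR adjusted p = 3.5e-06). *Nolc1* (ENSMUSG00000015176, chromosome 19, 46075863 to 46085530) had 39.3 and 41.8 CPM in the IP and 51.2 and 68.4 CPM in total RNA. It holds no annotated snoRNA, and with the block it fell by 0.55 on the log2 scale (SE 0.12, edgeR adjusted p = 0.000167). Both pairs were below 0 for *Nolc1*, at -0.38 (-0.61 to -0.15) and -0.71 (-0.91 to -0.52). *Npm1*, a histone chaperone of the nucleolus, had 22.1 and 19.7 CPM in the IP and 21.4 and 23.8 CPM in total RNA, with overlapping groups and -0.12 on the log2 scale under the block (SE 0.16, edgeR adjusted p = 0.699). With an offset for GC content and length *Npm1* was at -0.39 (SE 0.16, edgeR adjusted p = 0.139).

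*Nop56*, *Ncl* and *Nolc1* were called in each of the 9 fits with the block. The largest adjusted p came from DESeq2 for each, at 5.9e-07, 0.0117 and 0.0464. Without the block neither *Ncl* nor *Nolc1* was called in any leave-one-out fit, where their log2 fold changes ran from -0.76 to -0.44 and from -0.75 to -0.34.

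The genes with a snoRNA in counted exons were placed against all such hosts in the data. There were 63 among the genes tested, with a median log2 fold change with the block of -0.41, beside 0.01 over all genes and 0.04 over the 184 hosts whose snoRNAs are intronic only. Of the 63, 34 were called lower and 2 higher with the block, or 57.1%. That share was 10.3% of the 184 intronic hosts and 14.2% of all genes. *Nop56* was 7th from the lowest of the 63, *Ncl* 28th and *Nop58* 47th. The 63 take in Gm29362 and Gm23925, the rows that are almost wholly small RNA. Without these 2, both hosts of a single H/ACA pattern, the median was -0.39 over 61 and *Nop56* was 5th, *Ncl* 26th and *Nop58* 45th, a split chosen after the data were seen. The 42 hosts of a single exonic snoRNA, to which *Nop58* belongs, had a median of -0.29. The 11 hosts of 2, as *Ncl*, had a median of -0.41, and the 10 hosts of 3 or more, as *Nop56*, had -1.34. Hosts of C/D patterns alone (21 genes) had a median of -0.31 and hosts of H/ACA patterns alone (26 genes) -0.58. The 9 hosts with snoRNAs of more than one class, *Nop56* among them, had a median of -0.87, and the 7 hosts of RNAs with neither pattern 0.04. Across the 63 hosts the Spearman correlation of the log2 fold change with the share of exonic length held by small RNAs was -0.51, and with their number it was -0.24. These hosts share libraries and differ in length and level, so the correlations are descriptions. *Rps2*, whose protein the antibody binds, is also an exonic host and had 621 and 608 CPM in the IP against 403 and 355 CPM in total RNA, and with the block it rose by 0.70 on the log2 scale (SE 0.10, edgeR adjusted p = 4.8e-10).

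**Figure D4:**
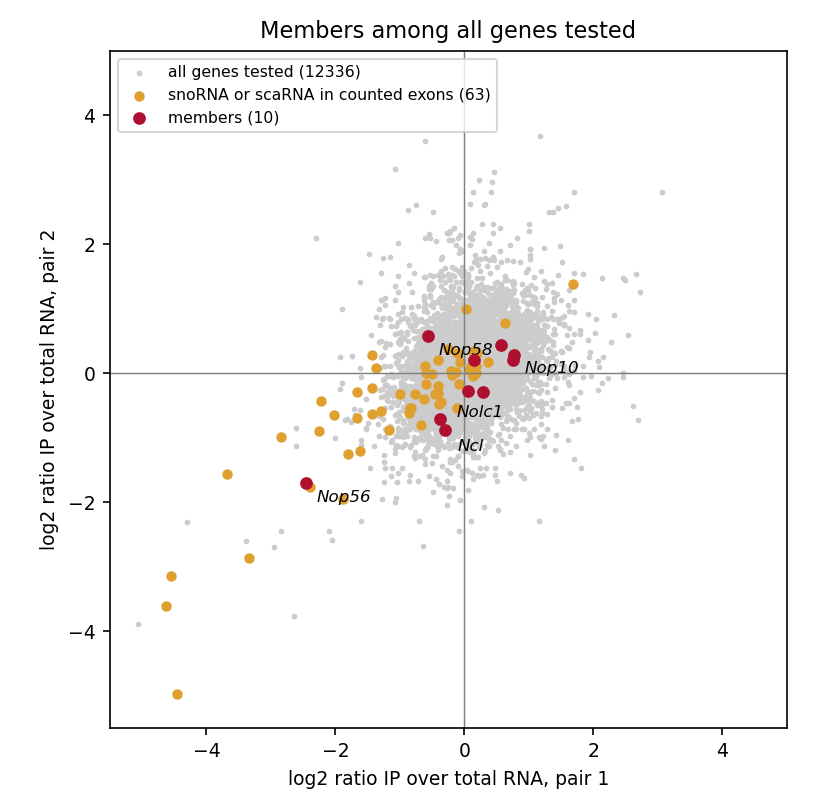
The log2 ratio of IP over total RNA in pair 2 against that in pair 1, with 12336 genes in grey (1 lies outside the axes), the 63 hosts of an exonic snoRNA or scaRNA in orange and the 10 snoRNP and nucleolar genes in red. *Nop56* lies at -2.45 and -1.71 amid orange points, and the other 9 lie within 1 log2 unit of 0 in both pairs.

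The same hosts also differed between the replicates. The log2 level in total RNA replicate 2 minus replicate 1 was -2.08 for *Nop56* and -0.78 for *Nop58*, while *Ncl* had 0.25. Over the 63 hosts the median was -0.73, with 52 lower in replicate 2. Over all 12336 genes the median was -0.01, with 6275 lower. Each of the 7 members without an exonic snoRNA was higher in total RNA replicate 2, with a median difference of 0.32. In the IP the difference was -1.33 for *Nop56*, 0.36 for *Nop58* and -0.33 for *Ncl*. The median of the 63 hosts was -0.14, with 46 lower in IP replicate 2, beside 6189 of the 12336 genes. The marker sums of astrocytes, microglia, the oligodendrocyte lineage, and fibroblasts and endothelium were also lower in replicate 2, as given above. Their part in this difference was not tested.

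The genes whose pair ratios lay nearest to those of *Nop56*, among genes with a mean of at least 10 CPM, were *Snhg20* (distance 0.080 in log2 units over the 2 pairs), *Col8a1* (0.608) and *Snhg12* (0.623). *Snhg20* and *Snhg12* are non-coding snoRNA hosts and hold small RNAs in counted exons. *Col8a1*, a collagen gene, holds none, and its log2 ratios were -1.89 and -1.93.

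A wider list of 153 ribosome assembly genes was read from the same fits, and 150 were tested. Without the block 0 were called, and with it 3 rose, 12 fell and 135 were not called, so 10% were called, beside 14.2% of all genes. Under the block DESeq2 had 0 higher calls and 4 lower, and library size scaling or the GC and length offset left 1 called higher. The list's median log2 fold change with the block was -0.03. Other snoRNP core and assembly factors had 0 of 15 higher and 2 lower, or 13.3% called beside 14.2% of all genes, with a median of -0.26. *Naf1*, which brings dyskerin to nascent H/ACA RNAs before GAR1 replaces it, had 11.9 and 11.9 CPM in the IP and 22.5 and 22.4 CPM in total RNA, and fell by 0.91 on the log2 scale (SE 0.19, edgeR adjusted p = 5.8e-05). *Tcof1*, which encodes treacle, a nucleolar partner of NOLC1, had 24.5 and 19.7 CPM in the IP and 41.9 and 31.1 CPM in total RNA and fell by 0.72 (SE 0.15, edgeR adjusted p = 4.7e-05). In both genes the IP libraries lay below total RNA, and neither holds an exonic snoRNA. With the GC and length offset *Tcof1* was at -0.46 (edgeR adjusted p = 0.0284) and *Naf1* at -1.08. *Tcof1* was called in each of the 9 fits with the block. *Naf1* was called in 8 of them, and DESeq2 gave it no adjusted p.

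RNA polymerase I and its factors had 1 of 15 higher and 2 lower, or 20% called beside 14.2% of all genes, with a median of -0.25. *Taf1d*, a subunit of the promoter selectivity factor SL1, had 36.9 and 9.97 CPM in the IP and 129 and 24.2 CPM in total RNA, and fell by 1.63 on the log2 scale (SE 0.13, edgeR adjusted p = 2.3e-31). Left out of the unpaired fit, total RNA replicate 1 took *Taf1d* to -0.04, total RNA replicate 2 to -2.47, IP replicate 2 to -1.06 and IP replicate 1 to -2.94. The gene holds 8 exonic snoRNAs, and like *Nop56* it was highest in total RNA of replicate 1 and lowest in the IP of replicate 2. *Polr1b*, a core subunit of the polymerase, fell by 0.52 (SE 0.19, edgeR adjusted p = 0.0456), and the initiation factor *Rrn3* rose by 0.50 (SE 0.14, edgeR adjusted p = 0.00491). *Polr1b* was called in 4 of 9 fits with the block and *Rrn3* in 6, and DESeq2 gave *Rrn3* an adjusted p of 0.176 and *Polr1b* none.

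Large subunit assembly factors had 2 of 49 higher and 5 lower, or 14.3% called beside 14.2% of all genes, with a median of -0.08. *Mrto4* rose by 0.90 on the log2 scale (SE 0.30, edgeR adjusted p = 0.0269), from 3.79 and 5.26 CPM in total RNA to 8.67 and 8.35 CPM in the IP. *Nop16* rose by 0.86 (SE 0.23, edgeR adjusted p = 0.00261), from 5.79 and 11.3 CPM to 13.9 and 17.2 CPM. *Nop16* was called in 8 of 9 fits with the block and *Mrto4* in 5, and DESeq2 gave neither an adjusted p. *Ppan*, with 2 exonic snoRNAs, fell by 0.75 (SE 0.18, edgeR adjusted p = 0.000912). It was called in 8 of 9 fits with the block and got no adjusted p from DESeq2. *Gnl3*, which encodes nucleostemin and holds 3 exonic snoRNAs, was not called, at -0.34 (SE 0.21, edgeR adjusted p = 0.314). The small subunit processome had 0 of 49 higher and 2 lower (4.08% called, median -0.03). Other abundant nucleolar proteins had 0 of 9 higher and 1 lower (11.1% called, median 0.02). The exosome, which trims rRNA and snoRNA precursors, had 0 of 13 called in either direction (median 0.22).

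**Figure D5:**
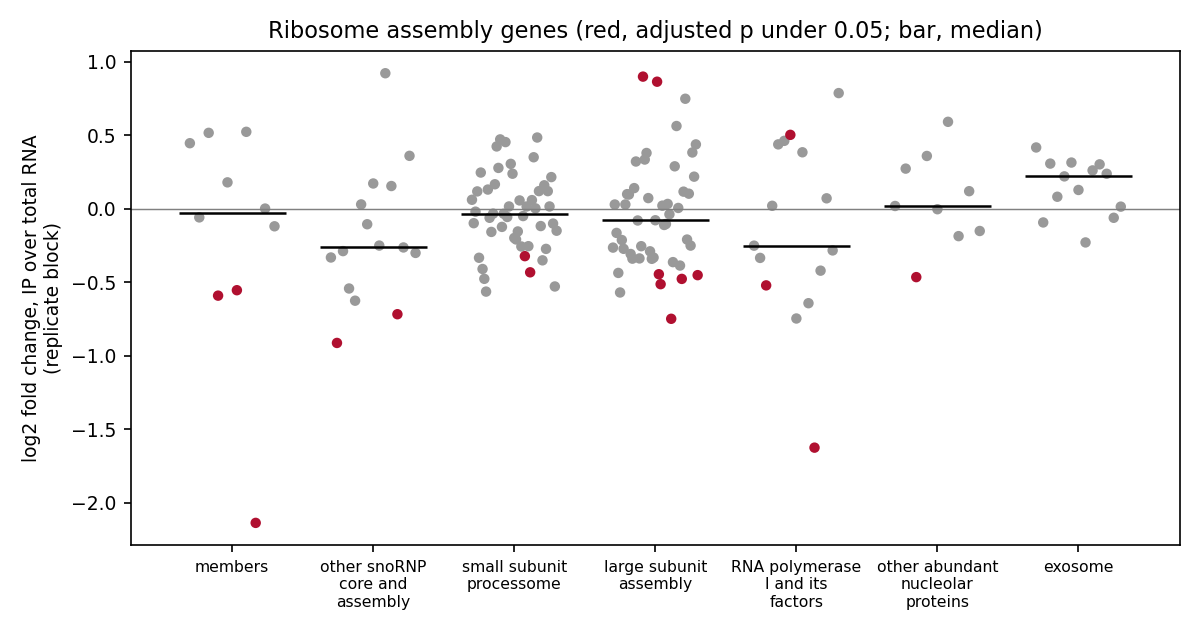
The log2 fold change of IP over total RNA with the replicate block for the 10 members and 6 lists of other ribosome assembly genes, each point 1 gene, red where the edgeR adjusted p is under 0.05, with a bar at each median. Red points are 3 of the 10 members and 15 of the 150 other genes, and the lowest points are *Nop56* and *Taf1d*.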

How the data were processed

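Reads were counted per gene in 2 RPS2 IP and 2 total RNA eCLIP libraries of primary cortical neurons. The deposited files hold raw counts, whole numbers with no normalization. Per the file headers, the authors ran featureCounts 1.5.3 in stranded mode on an mm10 single-cell reference annotation, without counting reads at several loci or in several genes. The study's methods give cutadapt trimming and STAR alignment that kept reads with up to 10 loci, and name no duplicate removal. Where duplicate reads were left in, the counting intervals are too narrow. These intervals cover counting error only.

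Identifiers were matched to GENCODE M21, which gave 31011 of 31053 a symbol. Library totals ran from 4899718 to 16460545 counts, which limits the rarer mRNAs. Counts were tested in R 4.3.3 with edgeR 4.0.16 (filterByExpr, TMM, quasi-likelihood test, two-sided, Benjamini-Hochberg over 12336 genes, threshold 0.05), after the step was tested on simulated data. Pair ratios used a prior count of 2. The main fit was unpaired. Total RNA was set aside ahead of the IP, and deviations from group means correlated at 0.733 between same-numbered libraries. Values with a replicate block therefore stand beside the unpaired ones. The match by number was read from the titles. The study states in general that distinct samples were measured, but neither the labels nor the eCLIP methods say whether these replicates were separate cultures. Without the block, p-values measure the spread between these libraries. With the block, edgeR standard errors and p-values rest on the common trend of dispersion and not on each gene's own spread. Similar transcripts were sought with blastn 2.17.0.

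The members and lists were chosen with earlier results of these data known. Beside the members, named genes were the 5 highest and 5 lowest called genes of the wider list, its exonic snoRNA hosts, *Rps2* and the 3 genes nearest to *Nop56*. Only 3 genes of the list were called higher. The snoRNA letter patterns were set after the sequences were seen. Alternatives were DESeq2 1.42.0, limma-voom (limma 3.58.1), other scalings and filters, an offset for GC content and length, removal of Gm42418, a stricter threshold and leaving out each library.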

Additional observations from a re-analysis of the deposited data

How the results depend on the processing

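Without the block, the counts called lower moved from 0 for all genes to 14 with no low-count filter, 5 with DESeq2 and between 1 and 20 over the leave-one-out fits, the 20 with IP replicate 1 left out. Members called lower moved to 1 with no low-count filter and ran from 0 to 1 over the leave-one-out fits. The wider list also ran from 0 to 1 over the leave-one-out fits. With the replicate block alone, 818 of all genes were called higher and 931 lower, 0 and 3 of the members, and 3 and 12 of the wider list. With the block, all genes called higher and lower numbered 158 and 382 with DESeq2, 685 and 927 with limma-voom, 283 and 878 with library size only, 721 and 996 with RLE size factors, 769 and 699 with no low-count filter, 878 and 926 with at least 10 counts in every library, 504 and 334 with a GC and length offset, 820 and 947 with Gm42418 removed, and 34 and 41 under the strict rule (adjusted p under 0.01, fold over 2). DESeq2 with the block left 7653 genes without an adjusted p, 7 of the 10 members among them. Members called lower were 3 in each of these fits except the strictest, which gave 1, and 1 member, *Nop10*, was called higher with no low-count filter and with at least 10 counts. In the same order, the wider list had 0 and 4, 2 and 12, 1 and 16, 3 and 16, 3 and 9, 3 and 11, 1 and 9, 3 and 12, and 0 and 1 called. The cause of these moves was not tested, beyond the fewer genes that a filter or threshold leaves.

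The members' median log2 fold change ran from -0.14 to 0.16 over the leave-one-out fits. It was above 0 when IP replicate 1 (0.16) or total RNA replicate 2 (0.16) was left out. *Nop58*, at -0.02 in the unpaired fit, was 0.00063 with the block, 0.0040 with no low-count filter, 0.0057 with the block and limma-voom, 0.023 with the block and no low-count filter, 0.010 with the block and at least 10 counts, and between -0.38 and 0.42 over the leave-one-out fits. *Fbl* ran from -0.57 to 0.62, *Dkc1* from -0.014 to 1.07 and *Nhp2* from -0.036 to 0.35 over the leave-one-out fits. The other 6 members kept their direction in every fit, and the 20 pair ratios kept theirs at a prior count of 0.5. *Dkc1*, with 9 counts in one library, was not in the fits with at least 10 counts. Library size alone moved the median of all genes to -0.08.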
